A study of Mus musculus with 2 samples.

Results

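The data described here are the transcripts of 10 transcription factors known for setting effector and memory fates of T cells, Prdm1, Bcl6, Id2, Id3, Batf, Irf4, Zeb2, Runx3, Ikzf3 and Maf. They were chosen by gene symbol out of the 32285 genes measured. No measured value entered the rule, but the list was made with earlier results of these data known. The study used single-cell RNA-seq to follow donor T cells in aGvHD, the acute form of graft-versus-host disease, in which T cells of a transplant donor attack the tissues of the recipient. Irradiated BALB/c mice received T cell-depleted bone marrow and purified naive splenic T cells of wild-type C57BL/6 mice, which differ from BALB/c at the MHC. The labels give 200000 T cells for both days. A legend of the study gives a higher number for this experiment and does not call the splenic T cells naive. Donor T cells, positive for CD45, H2kb and TCRβ and negative for H2kd, were sorted from recipient spleens and pooled, and 1 library was made for day +7 and 1 for day +14. Both library names carry the word PBS, and the sort text in the labels speaks of day +7 for both, so the day of a library is that of its title.

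Several of these factors work in opposed or joint pairs. Prdm1 encodes Blimp-1, a repressor that drives effector and plasma cells. Bcl6 is a repressor that promotes follicular helper and memory cells, and each opposes the other. Id2 and Id3 bind E proteins and keep them from DNA, Id2 being associated with effector cells and Id3 with memory precursors. Batf and Irf4 bind jointly to composite elements after T cell receptor signaling, Zeb2 acts with T-bet in terminal effector cells, Runx3 sets the cytotoxic CD8 program, Ikzf3 (Aiolos) is an Ikaros family factor of lymphocytes, and Maf (c-Maf) promotes cytokines such as IL-10 in helper and regulatory T cells.

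All 10 genes were placed on GRCm38, the build that the labels call mm10. In GENCODE M21, Prdm1 (ENSMUSG00000038151) is at chr10:44437177-44528501 on the minus strand and Bcl6 (ENSMUSG00000022508) at chr16:23965052-23988852 on the minus strand. Id2 (ENSMUSG00000020644) is at chr12:25093799-25097140 on the minus strand and Id3 (ENSMUSG00000007872) at chr4:136143497-136145755 on the plus strand. Batf (ENSMUSG00000034266) is at chr12:85686669-85709087 and Irf4 (ENSMUSG00000021356) at chr13:30749226-30766976, both on the plus strand. Zeb2 (ENSMUSG00000026872) is at chr2:44983632-45117395 on the minus strand, and Runx3 (ENSMUSG00000070691) at chr4:135120652-135177990 on the plus strand. Ikzf3 (ENSMUSG00000018168) is at chr11:98464902-98546031 and Maf (ENSMUSG00000055435) at chr8:115682942-115707794, both on the minus strand. Zeb2, Runx3 and Maf have an annotated antisense gene in their span (Zeb2os, Gm16224 and Gm15655), and Bcl6 overlaps the coding gene Gm37419 on the other strand. How far reads of such partners were kept apart depends on the strand setting of the counting.

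Promoters of 8 of the 10 genes were found in RefSeq (GRCm38.p6), all but those of Ikzf3 and Maf. Those of Prdm1, Irf4 and Zeb2 are shown because these 3 genes were higher at day +14 in more than 1 kind of T cell. Each run holds up to 250 bases before the start site, 5′ to 3′ on the strand of the gene and outside annotated exons, for Zeb2 at the most upstream of its 4 starts. The RefSeq start used for Prdm1 lies inside the GENCODE span of the gene and not at its 5′ end. Capitals mark CANNTG, the E-box that E proteins bind, and TGANTCA, the AP-1 element that Batf dimers bind. Both strands were searched, and no matches of these motifs overlapped in the runs shown.
Prdm1, chr10:44458749-44458998, minus strand: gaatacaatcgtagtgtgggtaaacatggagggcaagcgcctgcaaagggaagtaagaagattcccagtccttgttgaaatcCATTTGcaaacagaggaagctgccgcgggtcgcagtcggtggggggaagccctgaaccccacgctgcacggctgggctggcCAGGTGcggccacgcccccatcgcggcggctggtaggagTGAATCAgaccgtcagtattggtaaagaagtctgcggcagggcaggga
Irf4, chr13:30748983-30749225, plus strand: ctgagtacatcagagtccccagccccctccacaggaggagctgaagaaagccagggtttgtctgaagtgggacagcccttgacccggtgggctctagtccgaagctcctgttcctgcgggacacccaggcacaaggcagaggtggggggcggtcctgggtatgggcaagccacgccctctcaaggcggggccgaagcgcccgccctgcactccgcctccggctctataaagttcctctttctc
Zeb2, chr2:45117443-45117692, minus strand: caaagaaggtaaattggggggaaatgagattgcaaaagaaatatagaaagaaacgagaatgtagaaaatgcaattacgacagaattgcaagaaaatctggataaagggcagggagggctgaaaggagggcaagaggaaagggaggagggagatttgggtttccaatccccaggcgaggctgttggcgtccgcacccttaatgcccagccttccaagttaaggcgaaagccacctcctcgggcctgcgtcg
The Prdm1 window held 2 E-boxes and 1 AP-1 element, and the windows shown for Irf4 and Zeb2 held neither motif. Of all 32851 RefSeq promoter windows of 250 bases, 66.2% held CANNTG and 6.75% held TGANTCA. A match describes letters in a window and not a bound site.

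The values are unique molecular identifiers (UMIs), counts of captured RNA molecules per gene and barcode. Barcodes with 500 to 7500 detected genes and at most 15% mitochondrial UMIs were kept, 7179 at day +7 and 7794 at day +14, with medians of 9210 and 8144 UMIs. Of the kept barcode sequences, 17 occurred in both libraries. Cells were gated on transcripts that are not among the 10 genes, after barcodes rich in myeloid, erythroid or B cell transcripts had been set aside. Cells of the CD8 gate had Cd8a or Cd8b1 UMIs but no Cd4 or Foxp3 UMI, and numbered 5826 at day +7 and 5954 at day +14. The conventional CD4 gate required a UMI of Cd4 and none of Cd8a, Cd8b1 or Foxp3, and held 457 and 695 cells. Its non-cycling cells had medians of 6775.5 and 4335 UMIs. Left out of these gates were 191 and 505 barcodes with both Cd4 and Cd8 UMIs, with medians of 17190 and 13658 UMIs. So were 279 and 373 barcodes with no UMI of Cd4, Cd8a, Cd8b1 or Foxp3. The Foxp3+ gate, for regulatory T cells, required a UMI of Foxp3 and none of Cd8a or Cd8b1, and held 41 and 38 cells, so its values are the least precise. Cells with at least 10 UMIs of a list of 24 cell cycle genes per 10000 UMIs were called cycling, and cells with fewer than 5 non-cycling. The CD8 gate held 3421 and 3612 cycling and 1869 and 1885 non-cycling cells, and 281 and 284 cells lay near the upper limit, between 8 and 12.

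The gates required 2 UMIs of a list of 6 T cell receptor and CD3 genes, all of which were detected in every gate and together amounted to 5046 to 9564 UMIs per 1000000 UMIs of the same cells (CPM). In the Foxp3+ gate, Ikzf2, Ctla4 and Il2ra, which the gate does not use, were at 576, 383 and 238 CPM at day +7, against 29.0, 47.2 and 52.7 in the conventional CD4 gate. At day +14 they were at 1011, 725 and 187 against 59.4, 83.9 and 21.4. In non-cycling CD8 cells the 12 myeloid genes, 12 and 11 of them detected, amounted to 52.3 CPM at day +7 and 83.1 at day +14, the 9 erythroid genes to 7.15 and 24.1, and the 5 B cell genes to 29.4 and 2.79. The 2 NK cell genes, Ncr1 and Klrb1c, amounted to 20.2 and 1.71 CPM there and to 0 in Foxp3+ cells. In non-cycling CD4 cells the myeloid genes amounted to 41.8 and 98.8. The part of these transcripts in the results was not tested.

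A level is the sum of a gene's UMIs over the cells of a gate, relative to all UMIs of the same cells, in CPM. Each day has 1 library and thus no replicate, which allows no test, and the days cannot be told apart from the libraries or the pooled mice. Intervals are exact 95% intervals, Poisson for levels, conditional binomial for log2 ratios of levels and Clopper-Pearson for shares. They cover counting error only and take UMIs as independent, although several can come from 1 cell. A gene was called higher or lower where the levels differed by at least 1.5-fold, with a mean of at least 10 CPM and at least 20 UMIs over both sides. In the 12 main comparisons Bcl6 never passed this filter on low values, Zeb2 passed in 8, Id3 and Irf4 in 10, and the other 6 factors in all. Levels are compared between cells and not between genes, whose transcripts differ in length, and all comparisons draw on the same 2 libraries.

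The comparison of the days asked how the factors differed between an early and a later time of aGvHD. In non-cycling CD8 T cells, Ikzf3, Zeb2, Prdm1 and Irf4 were higher at day +14, by 1.76- to 2.84-fold, and no factor was lower. These were 4 of 9 factors that passed the filter, against 20.1% of all genes tested in either direction and 16.7% in the upward one. The median log2 ratio was 0.54 over the factors and 0.19 over all genes. The median of all genes lay between 0.11 and 0.21 in the other comparisons of the days, and the factors are read against it.

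**Figure D1:**
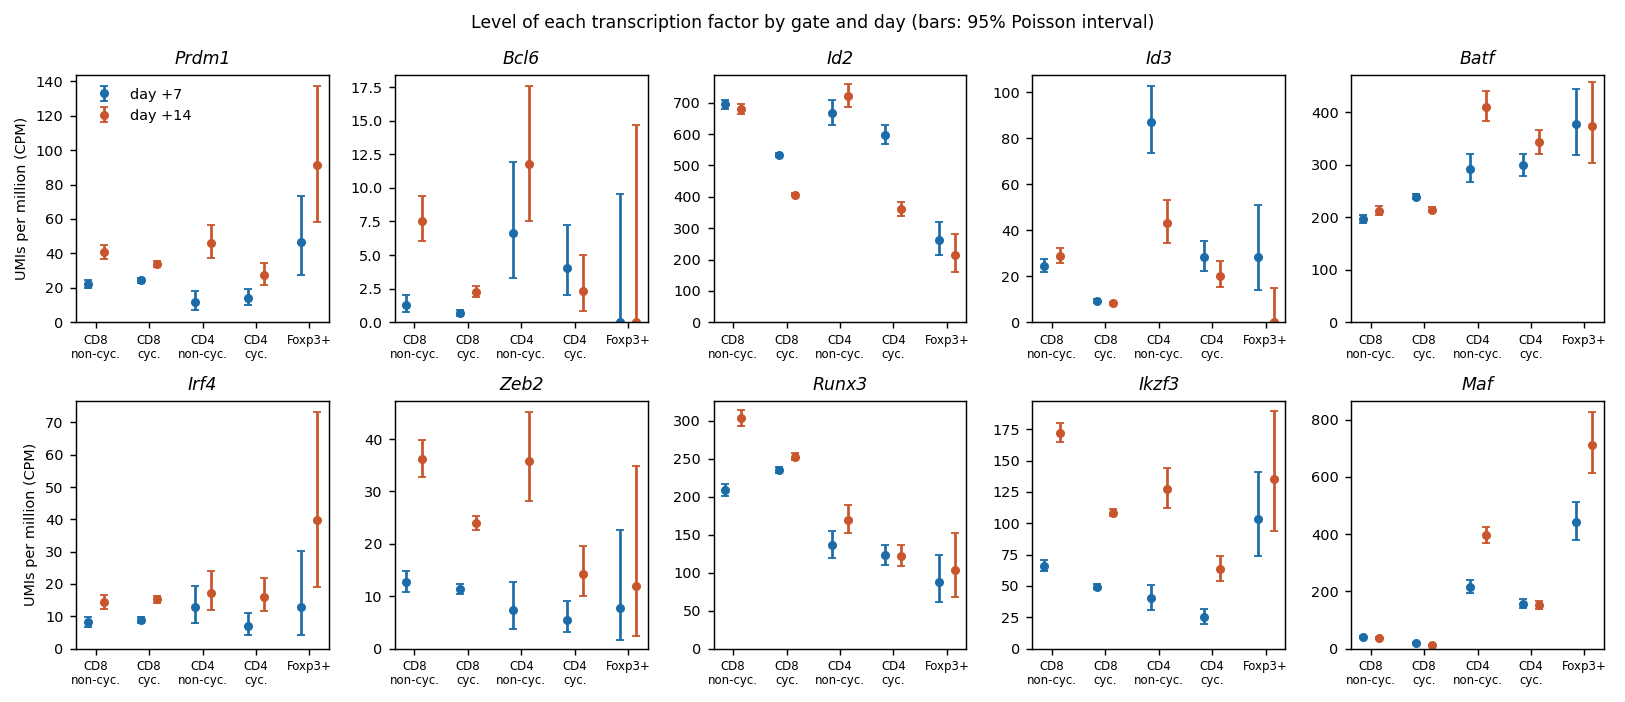
Level of each factor (CPM, linear axis from 0) in 5 gates at day +7 (blue) and day +14 (orange). Points are sums over the cells of a gate and bars are 95% Poisson intervals. Ikzf3 is higher at day +14 in both CD8 gates and both CD4 gates, Maf is highest in Foxp3+ cells at both days, and Id2 is lowest there.

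Ikzf3 was higher at day +14 in each CD8 and CD4 gate. Its level in non-cycling CD8 cells was 65.8 CPM (61.5 to 70.3) at day +7 and 172 CPM (165 to 180.2) at day +14, a log2 ratio of 1.39 (1.27 to 1.51). Cycling CD8 cells had it at 49.2 and 108 CPM, a ratio of 1.14 (1.07 to 1.21). In CD4 cells it was 40.0 and 127 CPM when non-cycling and 24.9 and 63.1 CPM when cycling, with ratios of 1.67 (1.28 to 2.08) and 1.34 (0.93 to 1.77). In these 4 gates the intervals of the days did not overlap, and the ratios stood 0.96 to 1.46 above the median gene. In Foxp3+ cells, which had the fewest UMIs, the intervals overlapped at 103 CPM (73.9 to 141) and 135 CPM (93.8 to 189).

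Shares of cells gave the same direction at equal depth. After each cell was thinned to 4000 UMIs, Ikzf3 was found in 23.2% (21.3 to 25.2) of non-cycling CD8 cells at day +7 and in 46.5% (44.0 to 49.0) at day +14, and without thinning in 35.2% and 58.0%. Erythroid barcodes, which should lack it, held it in 0 of 101 at day +7, which allows a share of barcodes with a UMI of up to 2.97% by the floor of 3 counts and up to 3.59% by the exact interval, and in 3 of 15 at day +14 (4.33 to 48.1%). Median depths before thinning were 6615 and 5294 UMIs in the CD8 cells and 32632 and 4039 in the erythroid barcodes. Thinning left out 198 and 969 shallower barcodes of the libraries. These shares kept the gates set on all UMIs. Ratios and counts given after thinning come from cells gated again on the thinned UMIs, so their set of cells differs too.

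Zeb2, the partner of T-bet, differed in the same direction. It was at 12.7 CPM (10.9 to 14.8) in non-cycling CD8 cells at day +7 and at 36.2 CPM (32.7 to 39.9) at day +14, a log2 ratio of 1.51 (1.24 to 1.78). The levels in cycling CD8 cells were 11.3 and 23.9 CPM, a ratio of 1.08 (0.94 to 1.23). Those in non-cycling CD4 cells were 7.27 and 35.9 CPM, a ratio of 2.30 (1.41 to 3.32) that rested on 12 UMIs at day +7 and became 3.64 after thinning. In these 3 gates the intervals of the days were separate. In cycling CD4 cells 15 and 37 UMIs gave 5.49 and 14.2 CPM, under the filter.

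Other lineages also held Zeb2. After thinning it was found in 24.8% of erythroid and 23.7% of myeloid barcodes at day +7, against 4.35% of non-cycling CD8 cells, so shares of T cells with a Zeb2 UMI are not read as expression here. Myeloid barcodes held 0.397 Zeb2 UMIs per 1000 UMIs of the myeloid genes at day +7 and 0.502 at day +14. Non-cycling CD8 cells held 243 and 435 per 1000. Erythroid barcodes held 1806 and 324 per 1000 UMIs of the same myeloid genes, which is no measure of erythroid transcripts in T cells. The part of other lineages in the Zeb2 ratios was not tested.

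Prdm1 was at 22.1 CPM (19.7 to 24.8) in non-cycling CD8 cells at day +7 and at 40.7 CPM (37.0 to 44.6) at day +14, a log2 ratio of 0.88 (0.66 to 1.09). Among cycling CD8 cells it was at 24.3 and 33.7 CPM, a ratio of 0.47 (0.36 to 0.58), which was under 1.5-fold. In non-cycling CD4 cells 19 UMIs gave 11.5 CPM (6.93 to 18.0) and 94 UMIs gave 46.2 CPM (37.3 to 56.5), a ratio of 2.01 (1.28 to 2.80) that was 1.00 after thinning. Prdm1 was thus higher in non-cycling CD8 and CD4 cells, with separate intervals. In cycling CD4 cells the levels were 13.9 and 27.5 CPM, a ratio of 0.99 (0.40 to 1.59). In Foxp3+ cells they were 46.5 and 91.6 CPM with overlapping intervals and a ratio of 0.98 (0.02 to 1.95). Over all kept cells the ratio of 0.68 became 0.47, under 1.5-fold, when the libraries were scaled by the median ratio of genes.

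Irf4, which T cell receptor signaling induces, was at 8.13 CPM (6.67 to 9.82) and 14.3 CPM (12.2 to 16.7) in non-cycling CD8 cells, a log2 ratio of 0.82 (0.45 to 1.18). In cycling CD8 cells it was at 8.85 CPM (8.05 to 9.71) and 15.2 CPM (14.2 to 16.3), a ratio of 0.78 (0.61 to 0.95). The intervals of the days were separate in both CD8 gates, but the calls stood near the limit, since the first ratio was 0.56 with stricter limits for cycling and the second 0.58 with scaling by the median ratio. In cycling CD4 cells 19 and 42 UMIs gave 6.95 and 16.1 CPM, a ratio of 1.21 (0.39 to 2.07). Its levels of 12.7 and 17.2 CPM in non-cycling CD4 cells had overlapping intervals.

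Batf, which pairs with Irf4, was not called in any comparison of the days. It was at 197 and 212 CPM in non-cycling CD8 cells, at 239 and 214 CPM in cycling CD8 cells and at 377 and 374 CPM in Foxp3+ cells. Its levels in non-cycling CD4 cells were 292 CPM (267 to 319.7) and 410.4 CPM (383 to 439), separate intervals with a log2 ratio of 0.49 (0.33 to 0.65) under the limit.

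**Figure D2:**
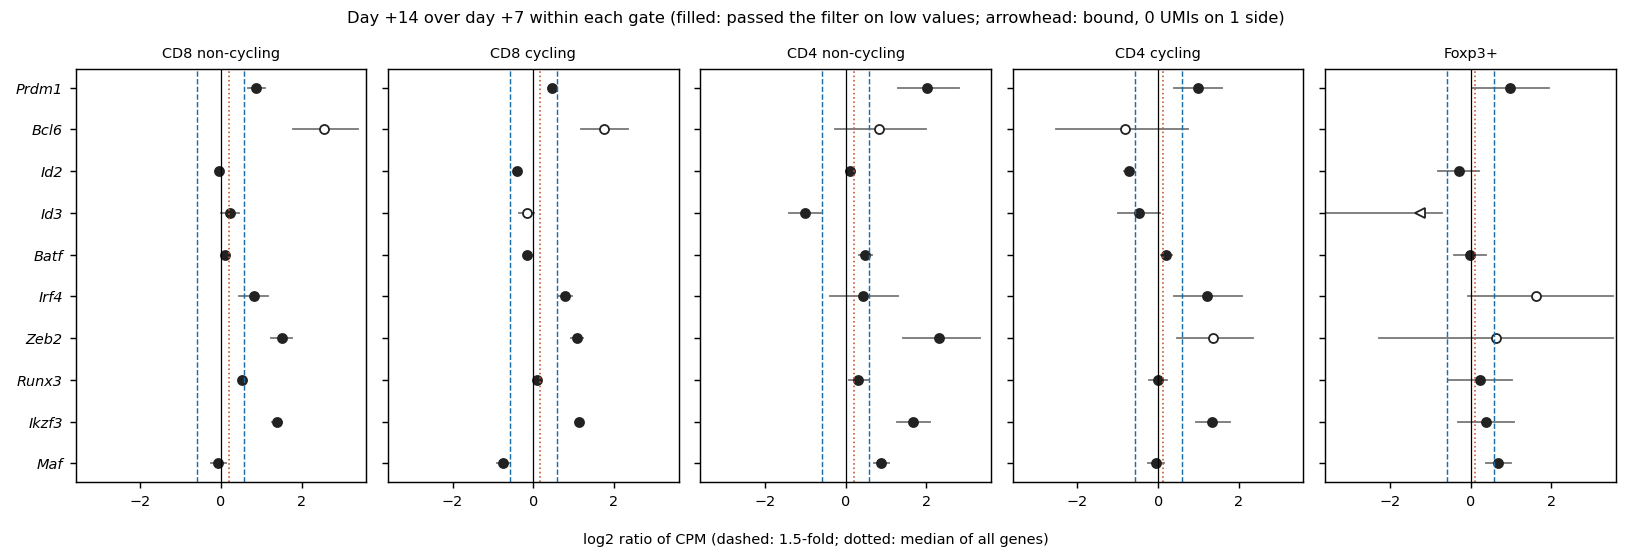
Log2 ratio of CPM, day +14 over day +7, for each factor in 5 gates. Filled points passed the filter on low values, lines are 95% intervals for counting error, the arrowhead is a bound with 0 UMIs at 1 day, dashed lines mark 1.5-fold and the dotted line is the median of all genes tested. Ikzf3 lies at 1.14 to 1.67 in the CD8 and CD4 gates, and Maf lies at -0.75 in cycling CD8 cells and at 0.88 in non-cycling CD4 cells.

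In cycling CD8 cells, Ikzf3, Zeb2 and Irf4 were higher and Maf was lower, 4 of 8 factors against 10.8% of all genes, with medians of 0.29 against 0.18. In non-cycling CD4 cells Prdm1, Zeb2, Ikzf3 and Maf were higher and Id3 was lower, 5 of 9 against 29.1%, with medians of 0.49 against 0.21. In cycling CD4 cells Prdm1, Irf4 and Ikzf3 were higher and Id2 was lower, 4 of 8 against 16.5%, with medians of 0.10 against 0.13, and the count was 2 after thinning. In Foxp3+ cells Prdm1 and Maf were higher, 2 of 6 against 32.0%, with medians of 0.31 against 0.11, so the share called was near that of all genes. When cells with Cd8a or Cd8b1 UMIs were let into the Foxp3+ gate, the ratio of Prdm1 was 0.57, under the limit, and that of Maf 1.32. Over all kept cells the count was 4 of 9 against 12.1%, with medians of 0.26 against 0.18.

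Id2 and Id3, both inhibitors of E proteins, were compared as a pair. Id2 was at 695 CPM (681 to 709.6) and 679 CPM (664 to 694) in non-cycling CD8 cells, whose intervals overlapped. In cycling CD8 cells it was at 533 CPM (527 to 539) and 407 CPM (401 to 412), a log2 ratio of -0.39 (-0.42 to -0.36) under the limit. In cycling CD4 cells it was at 598 CPM (569.7 to 628) and 361 CPM (338 to 385), a ratio of -0.73 (-0.85 to -0.61) that was -0.58, under the limit, after thinning. Id2 was thus lower at day +14 in cycling cells, and past 1.5-fold in the CD4 gate only. Id3 was at 24.5 and 28.8 CPM in non-cycling CD8 cells and at 9.17 and 8.19 CPM in cycling CD8 cells. In non-cycling CD4 cells it was at 87.2 CPM (73.5 to 103) and 43.3 CPM (34.7 to 53.3), separate intervals with a ratio of -1.01 (-1.41 to -0.62).

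Of the UMIs of both Id genes, Id3 made up 11.6% (9.83 to 13.5) in non-cycling CD4 cells at day +7 and 5.65% (4.56 to 6.92) at day +14, and these intervals were separate. In non-cycling CD8 cells the share was 3.41% (3.06 to 3.79) and 4.07% (3.64 to 4.53), with overlapping intervals.

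Bcl6 was rare at both days. In non-cycling CD8 cells 17 UMIs gave 1.28 CPM (0.746 to 2.05) at day +7 and 84 UMIs gave 7.56 CPM (6.03 to 9.36) at day +14, a log2 ratio of 2.56 (1.80 to 3.41) that the filter kept from being called. In cycling CD8 cells the levels were 0.669 and 2.25 CPM, and in non-cycling CD4 cells 6.66 CPM (3.32 to 11.9) and 11.8 CPM (7.56 to 17.6), with overlapping intervals. No Bcl6 UMI was seen in Foxp3+ cells, where 3 UMIs, the floor taken for a count of 0, would be 7.75 and 11.9 CPM at the respective days and the exact intervals reach 9.54 and 14.7 CPM. Myeloid barcodes held Bcl6 in 9 of 68 at day +14 after thinning, against 35 of 1565 non-cycling CD8 cells, so a share of cells is not read as expression.

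Of the UMIs of Bcl6 and its antagonist Prdm1, Bcl6 made up 5.47% (3.22 to 8.61) in non-cycling CD8 cells at day +7 and 15.7% (12.7 to 19.0) at day +14, with separate intervals. It made up 36.7% (19.9 to 56.1) and 20.3% (13.5 to 28.7) in non-cycling CD4 cells, with overlapping intervals.

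**Figure D3:**
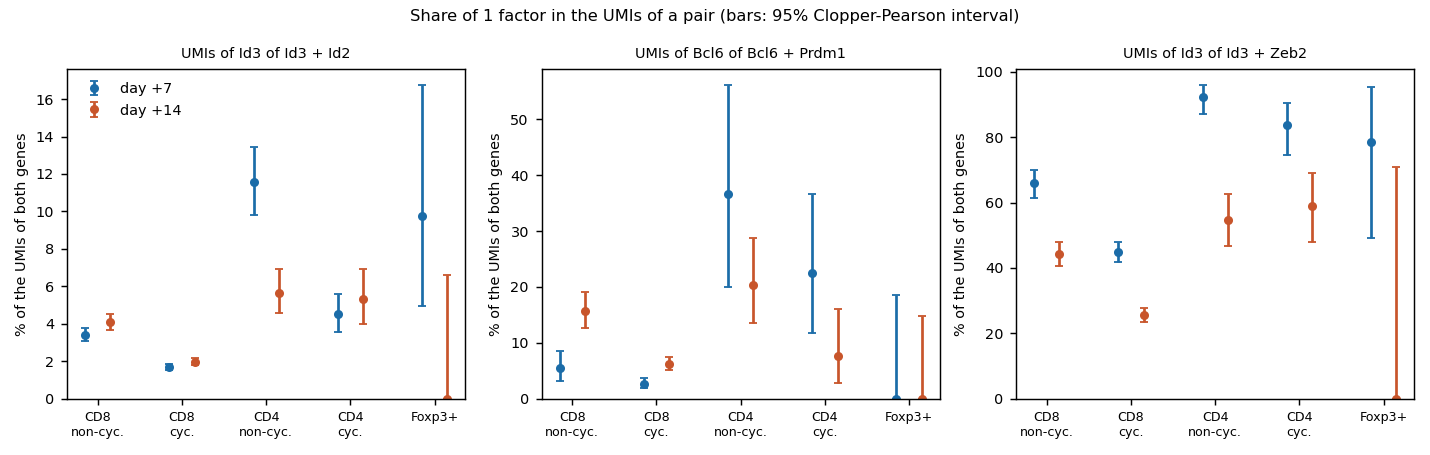
Share of 1 factor in the UMIs of a pair (percent, axis from 0) in 5 gates at day +7 (blue) and day +14 (orange), with 95% Clopper-Pearson intervals. The share of Id3 against Zeb2 is 92.3% and 54.7% in non-cycling CD4 cells and 65.9% and 44.3% in non-cycling CD8 cells.

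Id3 and Zeb2 are known for opposite ends of the range from memory precursor to terminal effector CD8 cells. Id3 made up 65.9% (61.5 to 70.0) of the UMIs of both in non-cycling CD8 cells at day +7 and 44.3% (40.7 to 48.0) at day +14. Its share was 92.3% (86.9 to 96.0) and 54.7% (46.6 to 62.5) in non-cycling CD4 cells. The intervals of the days were separate in both gates. In non-cycling CD8 cells Id3 itself was not lower at day +14, at 24.5 and 28.8 CPM, while Zeb2 was at 12.7 and 36.2 CPM. In non-cycling CD4 cells Id3 was at 87.2 and 43.3 CPM and Zeb2 at 7.27 and 35.9 CPM.

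Runx3 was not called in any comparison of the days. It was at 209 CPM (201 to 217) and 303 CPM (293 to 314) in non-cycling CD8 cells, a log2 ratio of 0.54 (0.46 to 0.61) just under the limit, and at 123 and 122 CPM in cycling CD4 cells. Maf differed in direction between gates. It was at 38.6 and 37.1 CPM in non-cycling CD8 cells, with overlapping intervals. In cycling CD8 cells it was lower at day +14, at 20.6 CPM (19.4 to 21.9) and 12.3 CPM (11.3 to 13.3), a ratio of -0.75 (-0.89 to -0.60) that was -0.51, under the limit, after thinning. In non-cycling CD4 cells it was higher, at 214 CPM (193 to 238) and 396 CPM (369 to 424), a ratio of 0.88 (0.70 to 1.07). In Foxp3+ cells it was at 442 CPM (378 to 513) and 713 CPM (612 to 825), a ratio of 0.69 (0.38 to 1.00).

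Conventional CD4 and CD8 cells of the same library, both non-cycling, were compared next. Maf and Id3 were higher and Runx3 was lower in CD4 cells at both days. At day +7 6 of 8 factors passed 1.5-fold against 12.4% of all genes, with medians of 0.26 against 0.07, and at day +14 4 of 9 against 12.9%, with medians of 0.18 against 0.10. Maf was 5.55-fold higher in CD4 cells at day +7 (2.47, 2.27 to 2.67 on the log2 scale) and 10.7-fold higher at day +14 (3.42, 3.24 to 3.59). Id3 had log2 ratios of 1.83 (1.54 to 2.12) and 0.59 (0.23 to 0.93), and the second was 0.47, under the limit, with a mitochondrial limit of 5%. Runx3, which silences Cd4 in the cytotoxic lineage, had ratios of -0.62 (-0.82 to -0.42) and -0.84, the first being -0.48 after thinning.

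The other factors were called at 1 of the days or at neither. Prdm1 was lower in CD4 cells at day +7, with a log2 ratio of -0.94 (-1.70 to -0.28) that was -0.27 after thinning, and had 0.18 (-0.15 to 0.51) at day +14. Ikzf3 had -0.72 (-1.10 to -0.36) at day +7, which was -0.56 with gates of at least 2 UMIs, and -0.44 (-0.63 to -0.25) at day +14, under the limit. Batf had 0.57 (0.43 to 0.71), just under the limit, and 0.95 (0.83 to 1.06), higher in CD4 cells. Irf4 had 0.64 (-0.10 to 1.33) at day +7, an interval that held 0, and 0.32 after thinning. Id2 was within 0.09 of equal levels on the log2 scale at both days.

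Foxp3+ cells were set against conventional CD4 cells of the same library. Maf and Prdm1 were higher and Id2 was lower in Foxp3+ cells at both days. In all, 5 of 8 factors passed 1.5-fold at day +7 against 27.8% of all genes, with medians of 0.44 against 0.02, and 6 of 9 at day +14 against 36.0%, with medians of 0.02 against 0.07. Maf was at 442 against 181 CPM and at 713 against 269 CPM, with log2 ratios of 1.29 (1.04 to 1.53) and 1.41 (1.17 to 1.63). Prdm1, known in effector regulatory T cells, was at 46.5 against 13.9 CPM and at 91.6 against 35.8 CPM, with ratios of 1.75 (0.90 to 2.52) and 1.35 (0.66 to 1.98). Id2 was at 264 against 624 CPM and at 215 against 525 CPM, with ratios of -1.24 (-1.54 to -0.96) and -1.29 (-1.70 to -0.90).

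The other calls in Foxp3+ cells rested on few UMIs. Ikzf3 was at 103 against 30.7 CPM at day +7, a log2 ratio of 1.75 (1.21 to 2.26) that was 0.87 after thinning, and had 0.54 (-0.01 to 1.04) at day +14, under the limit. The 11 Id3 UMIs of day +7 came from 1 cell, a ratio of -0.89 (-1.91 to -0.02) that was -0.14 after thinning. No Id3 UMI was seen at day +14, against 29.6 CPM in conventional CD4 cells, which put the log2 ratio at -1.31 with 3 UMIs over the gate as the floor, with an interval that reached -0.99, and at -0.41 after thinning. Irf4 had 10 UMIs at day +14, a ratio of 1.26 (0.15 to 2.21) that was 0.00 after thinning. Zeb2 had 3 UMIs at each day, and its call at day +14 had an interval that held 0, -1.02 (-3.32 to 0.56). When Foxp3+ cells with Cd8a or Cd8b1 UMIs were let into the gate, an alternative added after the data were seen, the Maf ratio was -0.40 at day +7 and 0.35 at day +14, neither of them a call of higher Maf, and that of Zeb2 was -0.42 at day +14.

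**Figure D4:**
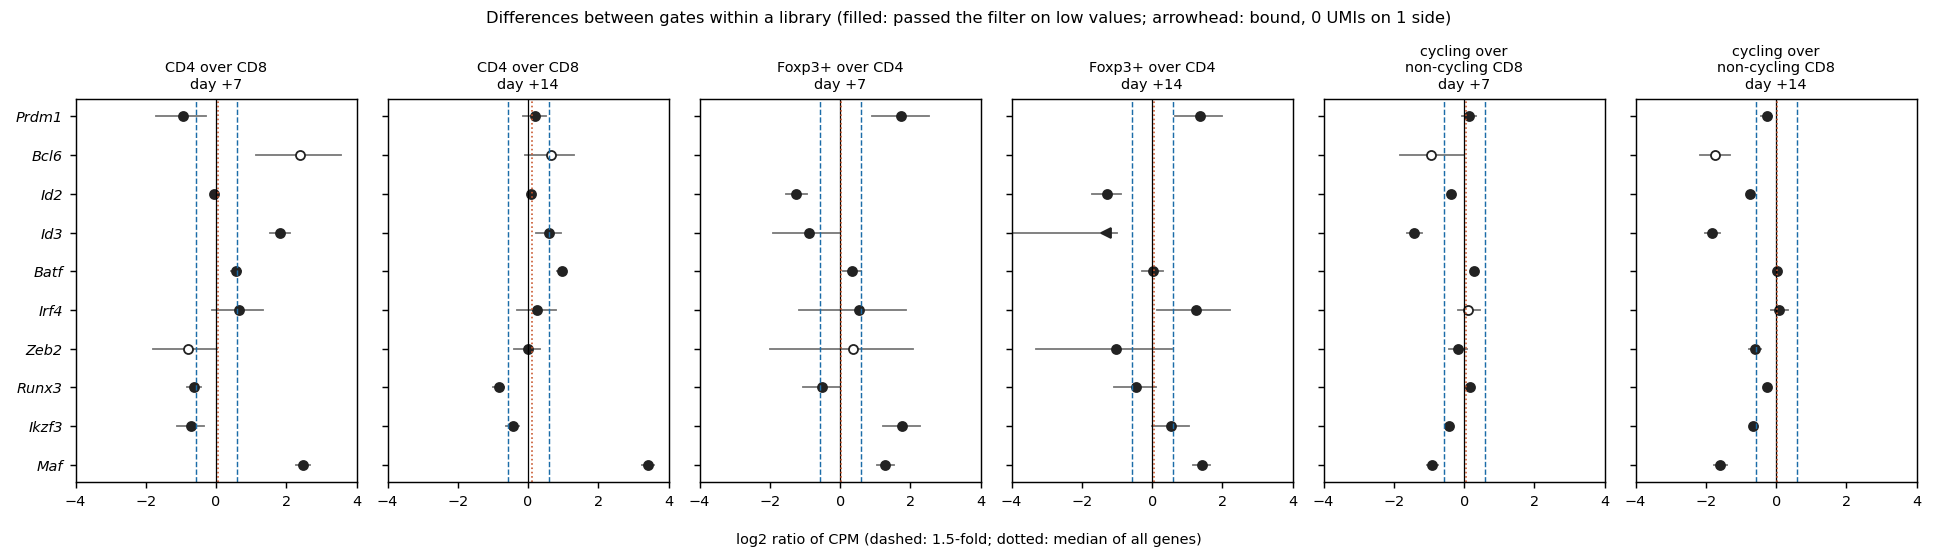
Log2 ratio of CPM between gates of the same library, for conventional CD4 over CD8 (non-cycling), Foxp3+ over conventional CD4, and cycling over non-cycling CD8 cells at days +7 and +14. Filled points passed the filter on low values, lines are 95% intervals for counting error, dashed lines mark 1.5-fold, the dotted line is the median of all genes and the arrowhead is a bound with 0 UMIs on 1 side. Maf lies at 2.47 and 3.42 for CD4 over CD8 and at -0.91 and -1.59 for cycling over non-cycling CD8 cells.

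Barcodes with UMIs of both Foxp3 and a Cd8 gene outnumbered the Foxp3+ gate, with 157 at day +7 and 50 at day +14, and their comparison with the CD8 gate was added after the data were seen. At least 2 Foxp3 UMIs were found in 110 and 27 of them, and a Cd4 UMI in 15 and 16. Maf was at 91.8 against 25.0 CPM in the CD8 gate at day +7 and at 225 against 16.9 CPM at day +14, with log2 ratios of 1.88 (1.67 to 2.07) and 3.74 (3.50 to 3.96). Prdm1 was at 38.8 against 23.8 CPM and at 48.8 against 34.9 CPM, with ratios of 0.71 (0.40 to 1.00) and 0.48 (-0.01 to 0.94). Maf thus passed 1.5-fold at both days and Prdm1 at day +7, 2 of 8 factors against 6.02% of all genes and 1 of 9 against 12.9%, with medians of 0.42 against 0.03 and 0.01 against 0.07.

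These barcodes were deeper than the CD8 gate, with medians of 12358 and 13846.5 UMIs against 9242.5 and 8590. The 12 myeloid genes amounted to 303 CPM in them at day +7 and 63.8 CPM at day +14. The doublet caller marked no barcode in either library and was not relied on, and whether some of these barcodes were doublets was not tested.

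Cycling CD8 cells were set against non-cycling ones of the same library. At day +7 Id3 and Maf were lower in cycling cells, 2 of 8 factors against 24.5% of all genes, with medians of -0.28 against 0.04. The share of factors called at day +7 was thus near that of all genes. At day +14 Id3, Maf, Id2, Ikzf3 and Zeb2 were lower, 5 of 9 against 27.3%, with medians of -0.60 against 0.01. Cycling cells were deeper, with medians of 12738 and 12074.5 UMIs against 6615 and 5294. The counts were 1 and 3 after thinning, which left out shallow cells and set the gates again. The set of cells thus changed along with the depth, and the parts of the 2 were not told apart. Id3 had log2 ratios of -1.42 (-1.63 to -1.21) and -1.81 (-2.03 to -1.60). Maf had ratios of -0.91 (-1.06 to -0.75) and -1.59 (-1.77 to -1.41), which were -0.41 and -0.85 after thinning. At day +14 Id2 had -0.74 (-0.78 to -0.70), Ikzf3 -0.67 (-0.74 to -0.59) and Zeb2 -0.60 (-0.76 to -0.43), and thinning put Ikzf3 at -0.51 and Zeb2 at -0.43, under the limit. Batf, Irf4, Prdm1 and Runx3 stayed within 0.28 of equal levels on the log2 scale at both days.

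Cells of the CD8 gate were then divided by whether they held a UMI of a gene known for a cell state, after every cell had been thinned to 4000 UMIs and gated again so that depth was equal. Tcf7 encodes TCF-1, a factor of stem-like and memory cells. The 145 cells of day +7 with Tcf7 held Id3 at 143 CPM against 10.1 CPM in the 5339 without, a log2 ratio of 3.83 (3.45 to 4.20). The 274 such cells of day +14 held it at 125 against 8.32 CPM in 5228, a ratio of 3.91 (3.58 to 4.24). Id3 thus stood with Tcf7 at both days. Id2 was lower in cells with Tcf7, at 386 against 619.6 CPM (-0.68, -0.88 to -0.49) and at 266 against 532 CPM (a log2 interval of -1.18 to -0.84). Prdm1 was lower as well, at 10.3 against 24.7 CPM (-1.25, -2.71 to -0.12) and at 12.8 against 37.8 CPM (-1.57, -2.44 to -0.81). Bcl6 had 2 UMIs in them at day +7 and 14 at day +14, where it was at 12.8 against 3.40 CPM (1.91, 0.97 to 2.75). Among non-cycling CD8 cells alone the ratios were 3.59 and 3.33 for Id3 and -0.82 and -1.72 for Id2.

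**Figure D5:**
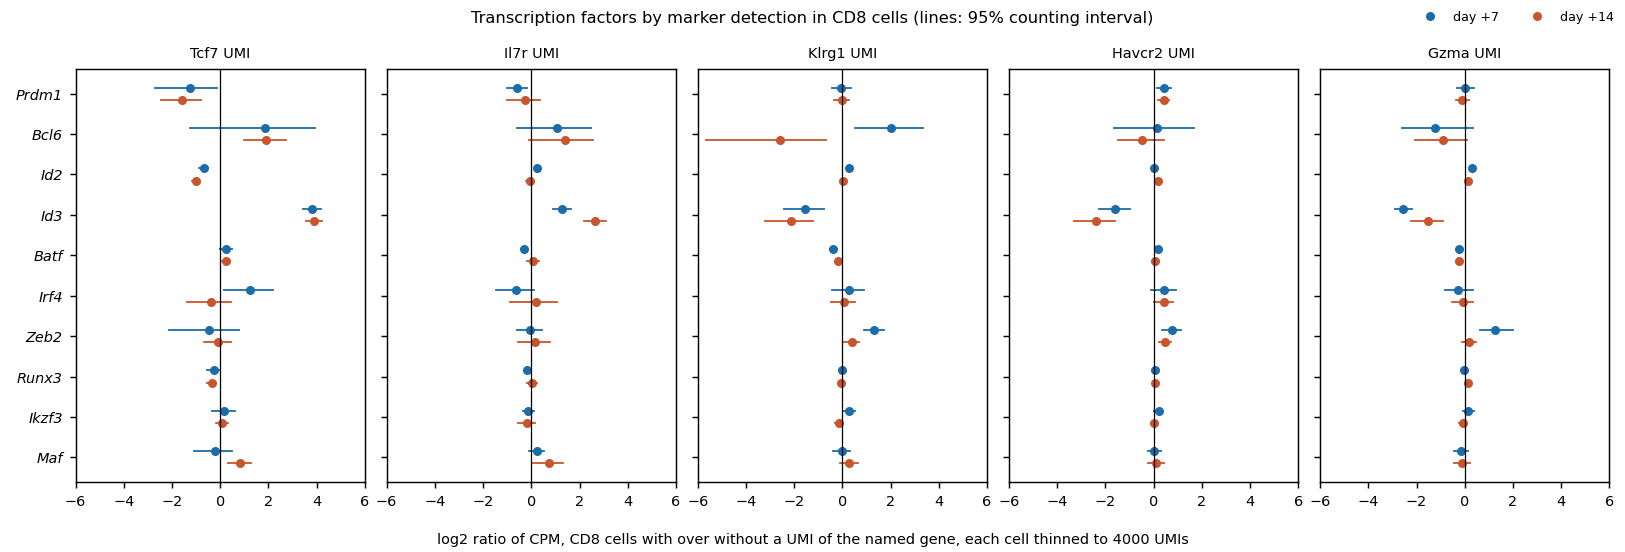
Log2 ratio of CPM in CD8 cells with over without a UMI of Tcf7, Il7r, Klrg1, Havcr2 or Gzma, each cell thinned to 4000 UMIs, at day +7 (blue) and day +14 (orange), with 95% intervals for counting error. Id3 lies at 3.83 and 3.91 in cells with Tcf7, and below 0 in cells with Klrg1, Havcr2 or Gzma at both days.

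The factors were also read against Il7r, the receptor of memory precursors for IL-7, and against genes of effector cells. In cells with an Il7r UMI, Id3 had log2 ratios of 1.27 (0.90 to 1.63) and 2.64 (2.17 to 3.09). In cells with Klrg1, a receptor of terminal effectors, Id3 had -1.54 (-2.43 to -0.77) and -2.13 (-3.20 to -1.23), and Zeb2 had 1.31 (0.89 to 1.71) and 0.39 (0.07 to 0.70). Zeb2 and Id3 thus lay on opposite sides of 0 in cells with Klrg1. At day +7 Bcl6 was higher in cells with Klrg1, at 2.92 against 0.729 CPM (a log2 interval of 0.54 to 3.35). These levels rested on 8 and 14 UMIs. At day +14 Bcl6 was lower in cells with Klrg1, at 0.716 against 4.32 CPM (-2.59, -5.66 to -0.69), from 2 and 83 UMIs. In cells with Gzma, a granzyme, Id3 had -2.55 (-2.89 to -2.21) and -1.53 (-2.22 to -0.90) and Zeb2 1.27 (0.61 to 2.01) and 0.20 (-0.10 to 0.48), the last holding 0. Gzma was found in 4566 of these cells and missing in 918 at day +7, and in 989 and 4513 at day +14, so the sizes of the groups differed. In cells with Havcr2 (TIM-3), an inhibitory receptor, Id3 had -1.59 (-2.25 to -0.98) and -2.39 (-3.32 to -1.59), Zeb2 0.76 and 0.48, and Prdm1 0.42 and 0.41. For Id3 the interval left out 0 in all 5 divisions at both days, while Runx3 stayed within 0.36 and Batf within 0.37 of equal levels. At day +7 the Batf interval also left out 0 in all 5. Its ratios there ran from -0.37 (-0.51 to -0.23) with Klrg1 to 0.26 (0.01 to 0.49) with Tcf7.

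Division by the factors themselves gave a related picture in part. In the 191 CD8 cells with an Id3 UMI at day +14, Bcl6 was at 23.6 against 3.15 CPM (2.90, 2.06 to 3.67), Prdm1 at 14.4 against 37.4 CPM (-1.38, -2.38 to -0.53) and Id2 at 285 against 528 CPM (-0.89, -1.09 to -0.69). In the 207 such cells of day +7, Prdm1 was at 12.1 against 24.8 CPM (-1.04, -2.11 to -0.15) and Id2 at 504 against 618 CPM (-0.29, -0.44 to -0.15), whereas Bcl6 had 2 UMIs. Cells with a Prdm1 UMI held less Id3, with log2 ratios of -1.37 (-2.39 to -0.51) and -1.67 (-2.55 to -0.90), and more Runx3, with 0.26 (0.12 to 0.39) and 0.25 (0.15 to 0.36). Cells with a Maf UMI held more Irf4 at day +14, 0.90 (0.38 to 1.38), while at day +7 the interval held 0, -0.34 (-1.28 to 0.48). The 157 cells with an Irf4 UMI at day +7 held more Id3, 1.29 (0.55 to 1.94), and also more Zeb2, 0.95 (0.06 to 1.72). Irf4 was itself higher in cells with Tcf7 at day +7, 1.26 (0.17 to 2.18), from 10 UMIs in them.

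A list of 46 relatives and partners of the 10 factors was counted in the same way, among them E proteins, other Ikaros, RUNX, MAF, AP-1 and IRF members and T cell fate regulators. In non-cycling CD8 cells 12 of the 34 that passed the filter were higher at day +14 and 2 were lower, with a median of 0.47 against 0.19 for all genes, of which 20.1% passed 1.5-fold. Among cycling CD8 cells 5 of 34 were higher and 2 lower, in non-cycling CD4 cells 14 of 35 and 1, in cycling CD4 cells 12 of 34 and 5, and in Foxp3+ cells 11 of 22 and 3. The shares of all genes past 1.5-fold in these 4 comparisons were 10.8%, 29.1%, 16.5% and 32.0%. In non-cycling CD8 cells Ikzf2 (Helios), a relative of Ikzf3, was at 20.3 and 101 CPM, a log2 ratio of 2.32 (2.13 to 2.52). Tox, a regulator of exhausted T cells, was at 84.9 and 317 CPM (1.90), and Eomes, a T-box factor, at 26.4 and 81.4 CPM (1.62, 1.44 to 1.81). Klf2, which maintains quiescence and homing to lymphoid organs, was lower, at 633 and 281 CPM (-1.17, -1.23 to -1.11), as was Hopx at 296 and 151 CPM (-0.97, -1.05 to -0.89).

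Between gates of 1 library, 6 of 33 relatives were higher in CD4 than in CD8 non-cycling cells at day +7 and 1 was lower, and 10 of 36 and 1 at day +14, against 12.4% and 12.9% of all genes in either direction. Tcf7 had the largest ratio of the list at both days, 2.31 (2.02 to 2.60) and 1.31 (1.06 to 1.57). In Foxp3+ against conventional CD4 cells 6 of 33 were higher and 8 lower at day +7, and 8 of 36 and 12 at day +14, against 27.8% and 36.0% of all genes. No Tcf7 UMI was seen in Foxp3+ cells at either day, against 53.8 and 68.3 CPM in conventional CD4 cells. In cycling against non-cycling CD8 cells 2 of 35 were higher at each day, Myb and Cbfb, the partner subunit of Runx3, and 6 and 8 were lower, Tcf7 the most, at -1.86 (-2.11 to -1.61) and -1.79 (-1.98 to -1.60). All genes passed 1.5-fold in 24.5% and 27.3% of cases, so the share of relatives called was near that of all genes.

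The order of the levels over the gates was read with the intervals of neighbors. Maf ran at both days from Foxp3+ cells over non-cycling and cycling CD4 cells to non-cycling and cycling CD8 cells, and no interval met that of its neighbor. Prdm1 was highest in Foxp3+ cells and Id2 lowest there, each apart from its neighbor at both days. Runx3 was higher in both CD8 gates than in the other gates, with a separate interval at that step, and its values in cycling CD4 and Foxp3+ cells overlapped. For Irf4 each gate overlapped its neighbor at both days. At day +14 Foxp3+ cells, at 39.8 CPM (19.1 to 73.2) from 10 UMIs, lay apart from both CD8 gates. Those were at 15.2 CPM (14.2 to 16.3) when cycling and 14.3 CPM (12.2 to 16.7) when non-cycling. The rest of the order of Irf4 was not resolved.

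Over the 10 combinations of day and gate, the pattern of each factor was compared with 4399 genes by the Pearson correlation of log2(CPM + 1). The combinations come from 2 libraries and the Foxp3+ values rest on few cells, so these correlations are descriptions. The genes named were picked as the highest, which by itself makes their correlations high. Bcl6 had no UMI in Foxp3+ cells at either day, and Irf4 had 10 UMIs there at day +14. Maf was most like Timp2 (0.98), Asb2 (0.97) and Icos (0.97), the last a costimulatory receptor of helper T cells. Runx3 was most like Nkg7 (0.96), Chd7 (0.95) and Chsy1 (0.95), of which Nkg7 is a protein of cytotoxic granules. For Prdm1 the genes were Nfil3 (0.96), Dym (0.96) and Washc4 (0.95), for Batf Ebi3 (0.97), Cd5 (0.95) and Tmem50b (0.94), and for Irf4 Pias1 (0.98), Uri1 (0.96) and Alg5 (0.96). For Id2 they were Il18r1 (0.96), Ppp3cc (0.95) and Ms4a6d (0.94), for Id3 Zfp51 (0.97), Dpp4 (0.97) and Mtg2 (0.96), and for Bcl6 Tbc1d4 (0.95), Ankmy2 (0.94) and Itm2a (0.93). For Zeb2 they were Rbms2 (0.97), Ncf1 (0.96) and Igf2r (0.95), and for Ikzf3 Vmp1 (0.96), Il15ra (0.95) and Sec24a (0.95). Among the factors themselves, Maf and Batf (0.91) and Ikzf3 and Prdm1 (0.86) were the most alike, and Maf and Runx3 (-0.86) and Batf and Runx3 (-0.81) the most opposed.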

How the data were processed

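Donor T cells sorted from spleen were run on the 10x Genomics Chromium platform, and the libraries were sequenced on a NovaSeq instrument. The authors deposited UMI counts per gene and barcode as filtered matrices of Cell Ranger 6.1.2, with mm10 as the genome build per the labels. The annotation release and the strand setting of the counting are not given in the sources used here. The libraries held 7355 and 8043 barcodes with 87124828 and 84233811 UMIs at days +7 and +14, and the filters left out 176 and 249 barcodes.

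UMIs were read with Python 3.11.15, numpy 2.4.6, scipy 1.17.1 and pandas 2.3.3, summed over the cells of a gate and divided by the total of the same cells (CPM). Barcodes were kept out of the gates where at least 0.5% of UMIs came from the myeloid list, 0.2% from the erythroid list or 0.05% from the B cell list, or where fewer than 2 UMIs came from the T cell list. Doublets were sought with Scrublet in scanpy 1.11.5, which marked 0 barcodes in each library and was not relied on, and an alternative left out the 433 and 518 barcodes of highest score. Only the log2 ratio and its interval were tried on simulated counts, for the days in non-cycling CD8 cells. The simulated UMIs were independent, so the trial could not show the effect of several UMIs from 1 cell. Gates, thinning, divisions of cells and correlations were not part of it. All 10 factors are named, and of the 46 relatives at most the 3 largest differences in each direction. The genes most alike were the 3 of highest correlation among those that averaged 10 CPM or more and had a range of at least 1 log2 unit over the 10 groups. The factors, lists and gates were chosen with earlier results of these data known. With 1 library per day no p-value was computed, and depth sets the width of the intervals. Ratios were recomputed under 11 alternatives, and 2 more were added after the data were seen, 1 for the Foxp3+ gate and 1 for the barcodes with Foxp3 and Cd8 UMIs, which had no run with gates of at least 2 UMIs.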

Additional observations from a re-analysis of the deposited data

Results flagged for a closer look

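Maf differed between the days in opposite directions in separate gates. Its log2 ratio of day +14 over day +7 was 0.88 in non-cycling conventional CD4 cells and -0.75 in cycling CD8 cells. The second was -0.51, under the limit, after thinning. These gates differ in both lineage and cycling. The ratio was -0.04 (-0.24 to 0.16) in cycling CD4 cells and -0.06 (-0.25 to 0.13) in non-cycling CD8 cells. Each gate has 1 library per day, and the difference between the ratios was not tested.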

How the results depend on the processing

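Across the alternatives, 144 counts of factors past 1.5-fold stayed within 1.5 times the reported count and 13 did not, and of the log2 ratios of single factors 1391 stayed within their interval, 136 moved beyond it and 1 reversed. Thinning to 4000 UMIs gave 2 factors for the days in cycling CD4 cells, and 1 and 3 for cycling over non-cycling CD8 cells at days +7 and +14. With any Cd8 UMIs let into the Foxp3+ gate, an alternative added after the data were seen, 4 factors passed between the days and 3 in Foxp3+ over conventional CD4 cells at day +14, and the Maf ratio at day +7 turned to -0.40. The count for Foxp3 with CD8 over CD8 cells at day +7, reported as 2, was 6 with the mean of the CPM of single cells, 6 after thinning, 4 without a filter on the mean CPM and 4 with at least 2 Foxp3 UMIs. At day +14, reported as 1, it was 4 after thinning, 2 without the highest Scrublet scores, 2 without the filter and 3 with at least 2 Foxp3 UMIs. The cause was not tested. The ratios of Ikzf3, Zeb2 and Prdm1 in non-cycling CD8 cells passed 1.5-fold under every alternative run. The other alternatives were 1 CPM added before the logarithm, other limits for cycling, gates of at least 2 UMIs, an interval that had to leave out 0, scaling by the median ratio, a mitochondrial limit of 5% and no exclusion of other lineages. No paired analysis was possible because each day has 1 library, and for the same reason no replicate could be left out. Few UMIs limit Bcl6 throughout, and few cells limit the factors of low level in the Foxp3+ gate.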
